A study of Mus musculus with 10 samples.

Results

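The mitochondrial genome was followed here gene by gene in obstructed mouse kidneys. All genes that the deposited table places on chromosome MT were taken, whatever their values, which gave 37 of 54532 genes: 13 protein genes, 2 ribosomal RNA genes (rRNAs) and 22 transfer RNA genes (tRNAs). Of these, 28 lie on the plus strand and 9 on the minus strand, namely mt-Nd6 and 8 tRNAs. The groups were 5 kidneys of Padi4-knockout mice and 5 kidneys of wild-type mice, named below by genotype and replicate number. The Padi4 protein is a deiminase that turns arginine residues of histones and other proteins into citrulline. All 10 kidneys, of both genotypes, came from mice whose ureter had been obstructed on 1 side for 10 days, and no unobstructed kidney is analysed here. Strain, sex, age and the making of the Padi4 allele are not stated in the labels. Nothing in them says more about the replicates than their numbers, so p-values measure the spread between these samples only.

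The genome of the mitochondrion is a small circle that encodes core subunits of the respiratory chain, the enzyme series that makes most of the cell's ATP, along with the RNAs needed to translate them inside the organelle. It is transcribed as long precursors from both strands. In these the tRNAs sit between most of the other genes, and nucleases cut the tRNAs out at both ends, which releases the messenger and ribosomal RNAs. In the kidney the proximal tubule, which reabsorbs most of the filtered salt and solutes, is especially rich in mitochondria. The libraries were made with an mRNA kit, per the labels' protocols, and such kits usually favour RNA with a poly(A) tail and pass over fragments as short as a mature tRNA.

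Each value is a level in FPKM, fragments per kilobase of gene scaled to library depth, and the reads behind it were recovered from the steps of the values. Libraries held 15002922 to 16886945 reads assigned to genes. Padi4 itself had 0.121 to 0.535 FPKM in knockout libraries and 0.0915 to 0.598 FPKM in wild-type libraries, or 9 to 43 and 6 to 47 reads. The groups overlapped, so the Padi4 row does not check the genotype labels. Of the 15 proximal tubule markers all were detected, and the muscle marker list, a possible mitochondria-rich admixture, summed to at most 2.70 FPKM in any knockout library and 1.24 FPKM in any wild-type library.

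3 tRNAs that lie side by side carried the smallest p-values among the mitochondrial genes, and they are printed here because 2 of them hold the largest positive differences of all genes tested. They occupy positions MT:11546-11741 of the plus strand, between mt-Nd4 and mt-Nd5. The table gives all 37 genes the start, end and strand of the GENCODE M21 annotation of GRCm38, and the sequences come from its transcripts. Capitals mark the anticodon, the 3 bases that read the codon. It was located as the triplet in the loop of a stem of 4 or 5 base pairs.
mt-Th: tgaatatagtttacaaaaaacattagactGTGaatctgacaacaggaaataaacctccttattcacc
mt-Ts2: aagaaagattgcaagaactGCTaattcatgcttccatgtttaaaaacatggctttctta
mt-Tl2: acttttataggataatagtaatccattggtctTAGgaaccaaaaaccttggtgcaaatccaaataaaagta
mt-Th is the histidine tRNA, 67 bases long. mt-Ts2 is the shorter of the serine tRNAs, 59 bases long. It lacks the D arm that other tRNAs have. mt-Tl2 is the leucine tRNA for the CUN codons, 71 bases long, and its first base is also the last base of mt-Ts2. There is no gap between mt-Th and mt-Ts2 and none between mt-Tl2 and mt-Nd5, so a read can cover more than 1 of these genes.

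The share of reads that fell on the mitochondrial genome was 4.01%, 3.46%, 3.73%, 4.70% and 5.07% in knockout libraries 1 to 5 and 8.11%, 3.18%, 3.63%, 3.73% and 5.79% in wild-type libraries 1 to 5. Wild-type 1 stood above all other libraries and wild-type 2 below them, so the knockout range lay inside the wild-type range. The means were 4.19% ± 0.672 in knockout and 4.89% ± 2.06 in wild-type libraries (SD, n = 5 each), a difference of -0.70 percentage points. Without wild-type 1 the wild-type mean was 4.08% ± 1.16 (SD, n = 4), and the difference turned to 0.11 percentage points. The 95% Wilson interval of each share was at most 0.0273 percentage points wide. It covers counting error only, since reads copied by PCR are not independent molecules.

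Wild-type 1 was also apart in its cell type markers. The summed level of 15 proximal tubule markers was 5640 to 7850 FPKM in knockout libraries, 18749 FPKM in wild-type 1 and 3803 to 10532 FPKM in the other wild-type libraries. In wild-type 1 a single marker reached 15646 FPKM and made up most of the sum. As a mean over the markers of log2 values centred per gene, wild-type 1 was at 1.24. On that scale knockout libraries were at -0.336 to 0.382 and the other wild-type libraries at -0.689 to 0.0956. The summed level of 10 macrophage markers was 944 to 1173 FPKM in knockout libraries, 578 FPKM in wild-type 1 and 1060 to 1156 FPKM in the other wild-type libraries. Of all 13435 genes tested, 19.8% had their highest value in wild-type 1. Of the mitochondrial genes, 12 of 13 protein genes, 2 of 2 rRNAs and 10 of 22 tRNAs did. The tRNA count includes genes too low to be tested, and mt-Tv and mt-Ts1, with at most 5 reads in any library, are among the 10. In bulk tissue fewer cells of a type and less RNA per cell cannot be told apart, and the part of these markers in the mitochondrial values was not tested.

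**Figure D1:**
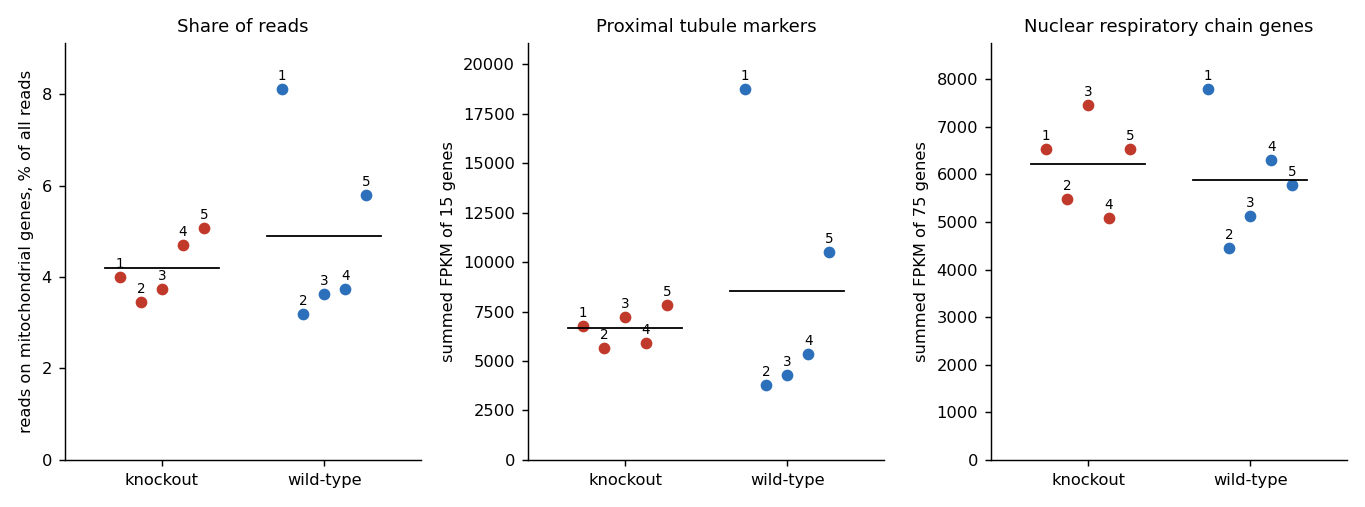
Percent of reads on mitochondrial genes (left), summed FPKM of the 15 proximal tubule markers (middle) and summed FPKM of 75 nuclear respiratory chain genes (right) in each library, with the replicate number at each point and a line at each group's mean, knockout left and wild-type right. Wild-type 1 is the highest library in every panel, with 8.11% of reads in the left one and 18749 FPKM in the middle one. A single marker holds 15646 FPKM of the latter.

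Protein genes took 97.6% to 98.3% of the mitochondrial reads, rRNAs 1.40% to 2.15% and tRNAs 0.256% to 0.338%, over all 10 libraries. The minus strand genes took 3.32% to 4.23%. Between 4 and 7 of the 10 genes with the highest FPKM in each library were mitochondrial. Per length, mt-Co1 was the highest of the 13 protein genes in all 10 libraries, followed in all 10 by mt-Cytb, mt-Nd1 and mt-Nd2. mt-Nd4, mt-Nd5 and mt-Nd6 exchanged positions 5 to 7 between libraries. mt-Co2, mt-Co3, mt-Atp6, mt-Nd3 and mt-Nd4l filled positions 8 to 12, and mt-Atp8 was the lowest in all 10. Nuclear copies, described below, repeat nearly all of the genes at positions 8 to 12, so their levels and order are uncertain.

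**Figure D2:**
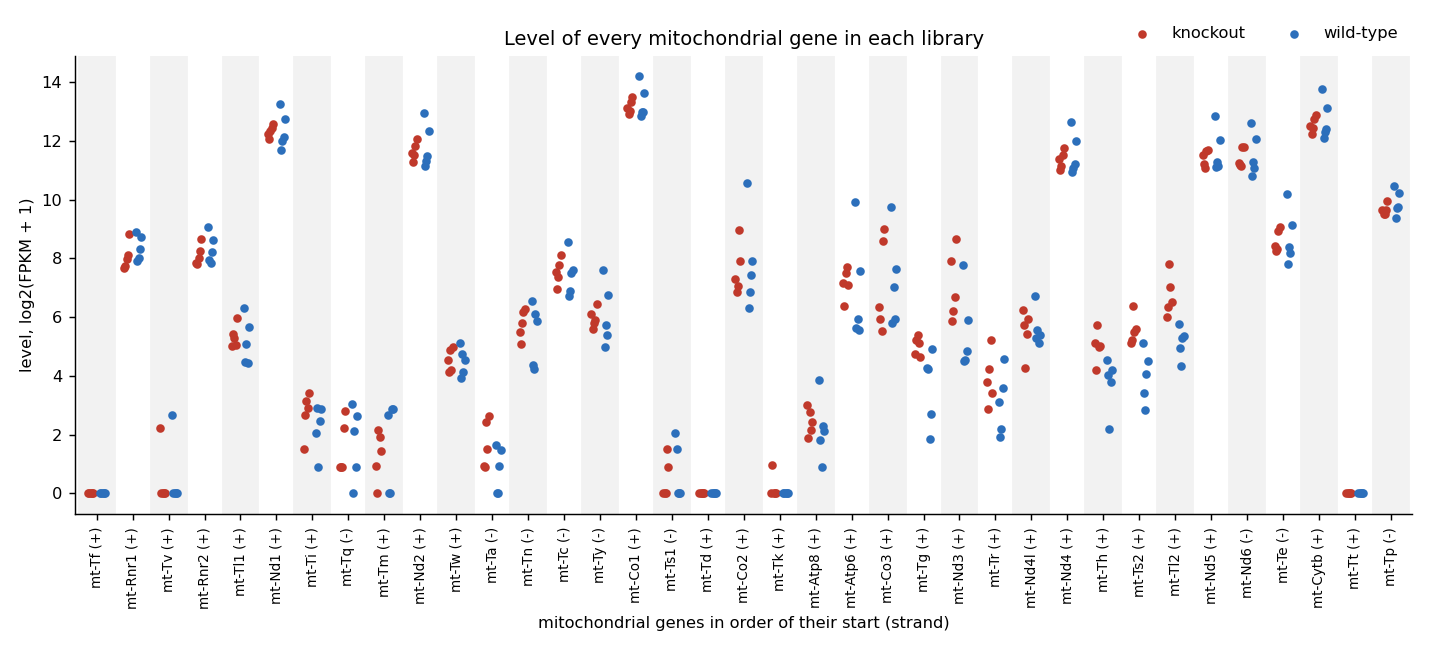
Level of each of the 37 mitochondrial genes on the log2(FPKM + 1) scale, in order of gene start with the strand in brackets, 1 point per library, knockout points left of wild-type points. Most protein genes lie far above the tRNAs, mt-Co2 to mt-Nd4l lie below the other protein genes and spread widely, and the points of mt-Ts2 and mt-Tl2 do not overlap between genotypes. Nuclear copies make the levels of mt-Co2, mt-Atp6, mt-Co3, mt-Nd3 and mt-Nd4l uncertain.

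Genotypes were compared with limma on log2(FPKM + 1) over 13435 genes, those averaging 1 FPKM or more, with Benjamini-Hochberg adjustment over all of them. 31 mitochondrial genes passed this filter, all 13 protein genes, both rRNAs and 16 tRNAs. 0 of the genes tested, mitochondrial or not, reached an adjusted p of 0.05, and the smallest adjusted p was 0.976. At an unadjusted p under 0.05 limma had 544 genes, 4.05% of those tested, and limma-voom on the recovered reads had 524, or 3.9%, with 0 adjusted calls. Among the 31 mitochondrial genes 5 had such a p, all higher in knockout, where 2.05% of all genes tested did in that direction. They were mt-Th, mt-Ts2, mt-Tl2, mt-Tg and mt-Nd3. Without wild-type 1, where again 0 genes passed the adjusted threshold, mt-Atp6, mt-Atp8 and mt-Ta joined them to make 8, all higher in knockout, beside 3.49% of all genes tested in that direction. None of the differences described below passed the adjusted threshold.

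The 13 protein genes had a median log2 difference of -0.15, knockout minus wild-type, with 3 higher and 10 lower in knockout. All genes tested had a median of 0.01, and 51.6% of them were higher. Without wild-type 1 the median was 0.18 and all 13 were higher in knockout, where 52.0% of all genes tested were. The direction therefore rested on wild-type 1. The 15 proximal tubule markers moved with it: 10 were higher in knockout with all libraries, at a median log2 difference of 0.06, and all 15 without wild-type 1, at a median of 0.37. Their part in the shift was not tested. The 2 rRNAs had a median of -0.26 with all libraries and -0.10 without wild-type 1. The 16 tRNAs had a median of 0.25, with 11 higher and 5 lower in knockout, and 0.44 without wild-type 1, with 14 higher and 2 lower.

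**Figure D3:**
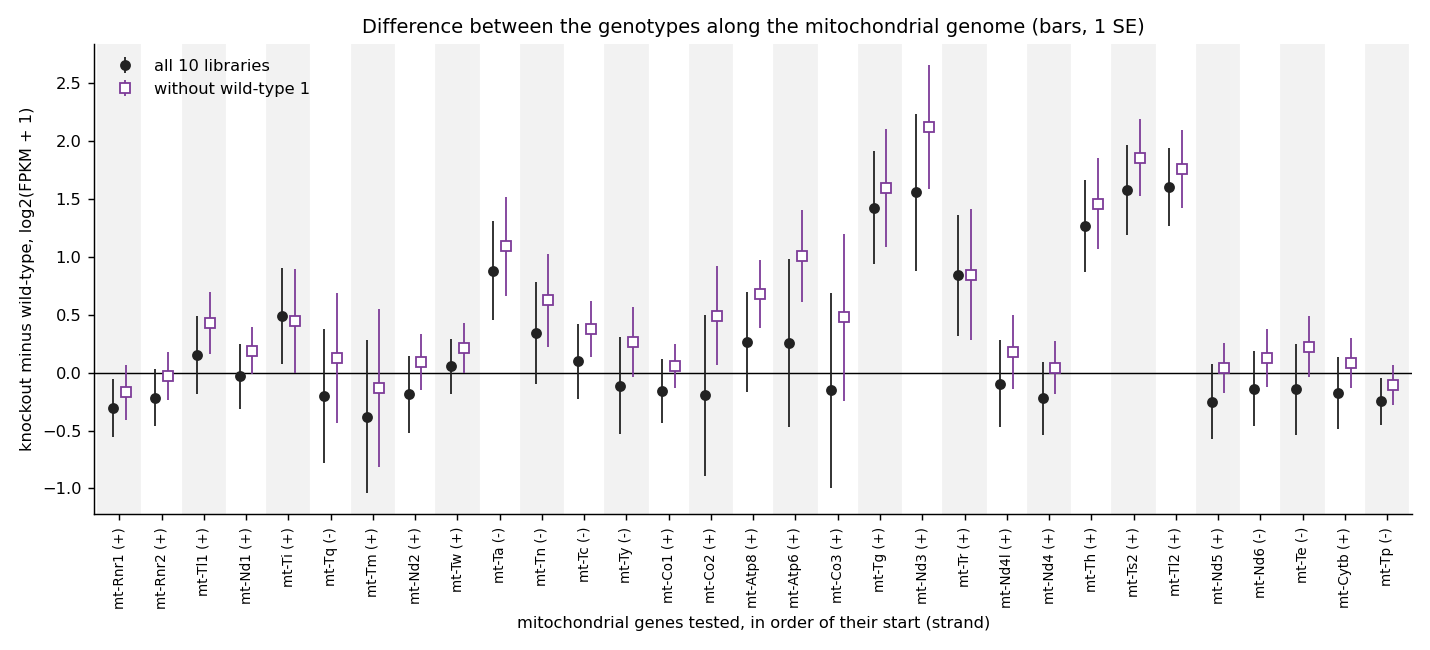
Log2 difference, knockout minus wild-type, of the 31 mitochondrial genes tested, in order of gene start, with 1 SE from limma. Filled circles use all 10 libraries and open squares leave out wild-type 1. The protein genes shift upward when wild-type 1 is left out, while mt-Tg with mt-Nd3 and mt-Th with mt-Ts2 and mt-Tl2 stand above 0 in both.

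In the tRNA run, mt-Tl2 had 62.9, 80.1, 224, 129.7 and 89.9 FPKM in knockout libraries 1 to 5, against 53.0, 29.6, 19.4, 38.5 and 39.9 FPKM in wild-type libraries 1 to 5. These rest on 71, 93, 265, 142 and 106 reads in knockout and 51, 33, 23, 44 and 46 reads in wild-type libraries. Every knockout library lay above every wild-type library, knockout 3 far above the others. The log2 difference was 1.60 (SE 0.335), with an unadjusted p of 0.000497 and an adjusted p of 0.976 in limma. This was the largest positive log2 difference of the 13435 genes tested and the fifth smallest p. Leaving out each library in turn gave 1.33 to 1.78 with unadjusted p of 0.000249 to 0.00191, the lowest value without knockout 3.

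mt-Ts2 had 34.1, 36.3, 82.5, 44.0 and 47.0 FPKM in knockout libraries, against 33.8, 9.71, 6.10, 15.8 and 21.9 FPKM in wild-type libraries. The groups did not overlap, but the lowest knockout library and wild-type 1 were almost level, at 32 and 27 reads. The log2 difference was 1.57 (SE 0.387) with an unadjusted p of 0.00167 in limma, the second largest positive difference of the genes tested. It was 1.28 to 1.85 with each library left out in turn. mt-Ts2 and mt-Tl2 were the 2 mitochondrial genes of the 31 tested whose groups did not overlap, both higher in knockout. Of all genes tested 39, or 0.29%, had every knockout library above every wild-type library.

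mt-Th had 33.8, 17.3, 52.1, 31.0 and 31.5 FPKM in knockout libraries, against 22.0, 15.2, 3.58, 12.98 and 17.5 FPKM in wild-type libraries. These rest on 36, 19, 58, 32 and 35 reads in knockout and 20, 16, 4, 14 and 19 reads in wild-type libraries. Knockout 2 lay within the wild-type range and the other knockout libraries above it. The log2 difference was 1.26 (SE 0.398) with an unadjusted p of 0.00836, and 0.87 to 1.47 with each library left out in turn.

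Summed over the run, reads of the 3 tRNAs numbered 139 to 404 in knockout libraries (median 187) and 33 to 98 in wild-type libraries (median 73). The protein genes on both sides did not show this order. mt-Nd4, a membrane subunit of complex I, the NADH dehydrogenase, had 2648, 2044, 2246, 2915 and 3497 FPKM in knockout libraries, against 6371, 1966, 2184, 2384 and 4118 FPKM in wild-type libraries, with a log2 difference of -0.22 (SE 0.314). mt-Nd5, another complex I subunit, had 2946, 2350.0, 2156, 3256 and 3305 FPKM in knockout libraries, against 7339, 2206, 2472, 2276 and 4199 FPKM in wild-type libraries, with a log2 difference of -0.25 (SE 0.321). Wild-type 1 and wild-type 5 held the highest value of each and the remaining libraries overlapped.

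Set against these neighbours, mt-Tl2 had 0.495 to 2.27 reads per 1000 reads of mt-Nd4 and mt-Nd5 in knockout libraries (median 0.800) and 0.170 to 0.368 in wild-type libraries (median 0.212). mt-Ts2 had 0.223 to 0.693 in knockout and 0.0478 to 0.125 in wild-type libraries. mt-Th had 0.163 to 0.496 in knockout and 0.0319 to 0.151 in wild-type libraries. On this scale the groups of all 3 tRNAs were apart, and knockout 3 was again the highest. For mt-Th the gap was narrow, between knockout 2 with 19 reads and wild-type 2 with 16. Reads that lie on the run are rare beside those of its neighbours. Since they can overlap more than 1 of the 3 tRNAs, these are not 3 separate observations. The neighbours were highest in wild-type 1, which lowers its ratios. On the same scale the groups of mt-Tg and of the arginine tRNA mt-Tr overlapped, and no share over other genes was computed.

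**Figure D4:**
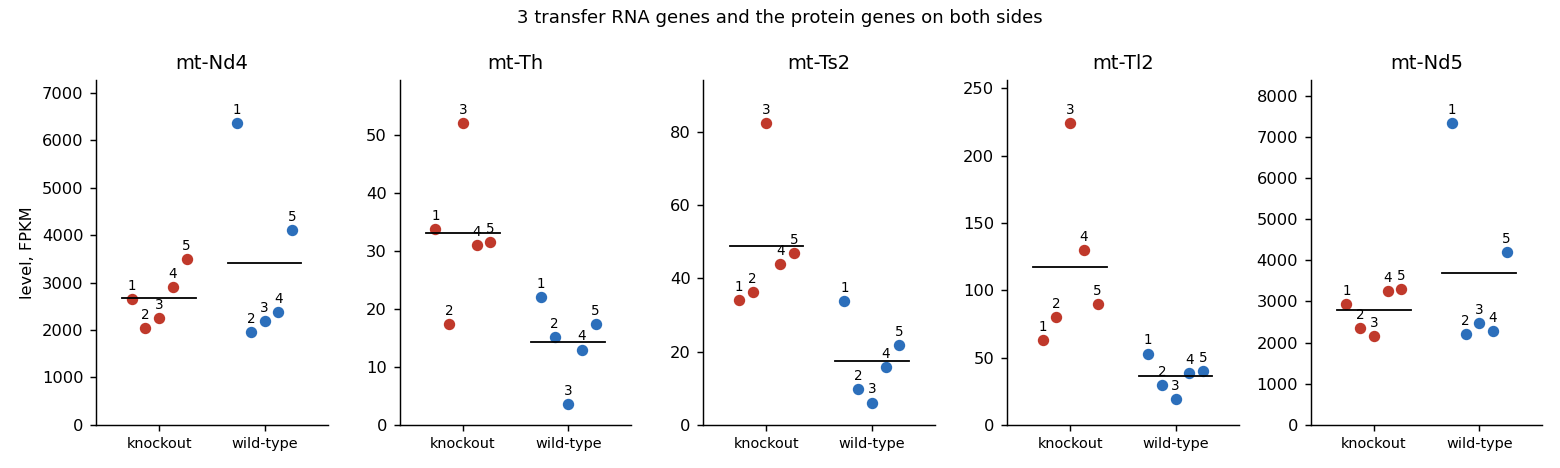
Level in FPKM of mt-Th, mt-Ts2, mt-Tl2 and the protein genes on their left and right, mt-Nd4 and mt-Nd5, per library, with the replicate number at each point and a line at each group's mean, knockout left and wild-type right, each panel with its own axis from 0. Knockout libraries lie above wild-type libraries for mt-Ts2 and mt-Tl2, with knockout 3 highest, while in mt-Nd4 and mt-Nd5 wild-type 1 is highest and the rest overlap.

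The other pair with small p-values was mt-Tg and mt-Nd3, which adjoin with no gap at positions MT:9391-9806, so a read can cover both. mt-Tg, the glycine tRNA, had 25.9, 36.0, 40.7, 33.4 and 23.9 FPKM in knockout libraries, against 18.4, 17.8, 2.64, 5.48 and 29.0 FPKM in wild-type libraries. These rest on 28, 40, 46, 35 and 27 reads in knockout and 17, 19, 3, 6 and 32 reads in wild-type libraries. Wild-type 5 lay within the knockout range and the other wild-type libraries below it. The log2 difference was 1.42 (SE 0.487) with an unadjusted p of 0.0134, and 0.99 to 1.75 with each library left out in turn. mt-Nd3, a small complex I subunit, had 241, 56.9, 73.1, 102 and 400.4 FPKM in knockout libraries, against 216, 21.6, 22.4, 27.8 and 58.7 FPKM in wild-type libraries. The groups overlapped through wild-type 1 and wild-type 5. The log2 difference was 1.55 (SE 0.678) with an unadjusted p of 0.0415, and 2.12 with an unadjusted p of 0.00219 without wild-type 1. In 3 of the 10 fits that left out 1 library the unadjusted p stayed under 0.05, with values of 0.00219 to 0.107 over the 10.

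By size of the positive difference, mt-Tl2, mt-Ts2, mt-Nd3 and mt-Tg held positions 1 to 4 of all 13435 genes tested, mt-Th position 6 and mt-Ta, the alanine tRNA, position 12. mt-Ta rested on at most 6 reads in any library, and its level was 0.886 to 5.24 FPKM in knockout and 0 to 2.14 FPKM in wild-type libraries. Its log2 difference was 0.88 (SE 0.427) with an unadjusted p of 0.0631, and 2.02 with a pseudocount of 0.1, and the groups overlapped.

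3 tRNAs exceeded 100 reads per library on average, all of them annotated on the minus strand. mt-Tp, the proline tRNA, had 804, 723, 729.6, 803 and 999.9 FPKM in knockout libraries, against 1426, 658, 830.2, 858 and 1206 FPKM in wild-type libraries. mt-Te, the glutamate tRNA, had 342, 303, 317, 485 and 538 FPKM in knockout libraries, against 1182, 221, 332, 288 and 564 FPKM in wild-type libraries. mt-Tc, the cysteine tRNA, had 187, 124, 164, 216 and 275 FPKM in knockout libraries, against 380.0, 103, 118, 181 and 192 FPKM in wild-type libraries. Wild-type 1 was the highest library for each of the 3 and the groups overlapped. Their log2 differences were -0.25 (SE 0.205), -0.14 (SE 0.391) and 0.10 (SE 0.324) for mt-Tp, mt-Te and mt-Tc.

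mt-Tp, whose reads numbered 693 to 1313 per library, adjoins the threonine tRNA mt-Tt on the opposite strand, which had 0 reads in all 10 libraries. They are printed for that contrast, each 5′ to 3′ on its own strand with the anticodon in capitals, at MT:15356-15422 on the minus strand and MT:15289-15355 on the plus strand.
mt-Tp: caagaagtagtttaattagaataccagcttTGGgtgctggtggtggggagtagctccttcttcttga
mt-Tt: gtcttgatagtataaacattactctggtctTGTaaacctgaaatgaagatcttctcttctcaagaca
Both are 67 bases long. By counting error alone a count of 0 allows up to 3 reads of mt-Tt, or 2.68 to 3.30 FPKM depending on the library. mt-Tt has no gap to mt-Cytb or to mt-Tp, and how the counter treated reads that cover several genes is not stated. Such reads may be missing from its count, so this floor does not bound the RNA of mt-Tt. Their part in the contrast was not tested. The phenylalanine tRNA mt-Tf and the aspartate tRNA mt-Td also had 0 reads in every library. mt-Tv, mt-Ts1 and mt-Tk, the valine, UCN serine and lysine tRNAs, had at most 5 reads in any library and were not tested. How the authors' read counter handled strand is not stated. For overlapping genes of opposite strands, such as mt-Nd5 and mt-Nd6, which share 14 bases, reads therefore cannot be assigned with certainty. Reads counted for minus strand genes, such as mt-Nd6 and mt-Te, may for the same reason include RNA of the plus strand. This was not tested.

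The rRNAs form the small and large subunit of the mitochondrial ribosome. mt-Rnr1, the small one, had 205, 212, 253, 279 and 456 FPKM in knockout libraries, against 480.4, 242, 259, 317 and 422 FPKM in wild-type libraries. mt-Rnr2, the large one, had 227, 224, 258, 307 and 408 FPKM in knockout libraries, against 538, 247, 226, 295 and 391 FPKM in wild-type libraries. Wild-type 1 was the highest for both, followed by knockout 5, and the groups overlapped. The log2 differences were -0.30 (SE 0.249) for mt-Rnr1 and -0.22 (SE 0.246) for mt-Rnr2. The ratio of mt-Rnr2 to mt-Rnr1 in FPKM was 0.894 to 1.11 in knockout and 0.874 to 1.12 in wild-type libraries.

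Among the complex I subunits, mt-Nd1 had 4774, 4239, 5217, 5574 and 6168 FPKM in knockout libraries, against 9803, 3298, 4108, 4483 and 6866 FPKM in wild-type libraries. mt-Nd2 had 3074, 2497, 2943, 3666 and 4321 FPKM in knockout libraries, against 7998, 2273, 2565, 2861 and 5168 FPKM in wild-type libraries. For both, wild-type 1 and wild-type 5 were the highest 2 libraries and wild-type 2 the lowest. The log2 differences were -0.03 (SE 0.280) for mt-Nd1 and -0.19 (SE 0.332) for mt-Nd2.

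mt-Nd6, the complex I subunit on the minus strand, had 2454, 2336, 2241, 3546 and 3503 FPKM in knockout libraries, against 6310.2, 1808, 2463, 2178 and 4233 FPKM in wild-type libraries. Its log2 difference was -0.14 (SE 0.325). Per length, the ratio of mt-Nd6 to mt-Nd5 was 0.833 to 1.09 in knockout and 0.820 to 1.01 in wild-type libraries. The 2 levels were thus near each other in every library, but the strand that these reads came from is not known. mt-Nd4l, the shortest complex I gene of this genome, had 74.3, 52.3, 18.2, 41.7 and 60.7 FPKM in knockout libraries, against 105, 38.4, 46.2, 33.7 and 41.0 FPKM in wild-type libraries. Its groups overlapped, with a log2 difference of -0.10 (SE 0.375).

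mt-Cytb, the only subunit of complex III encoded here, had 5872, 4819, 5548, 6834 and 7631 FPKM in knockout libraries, against 13999.8, 4389, 5025, 5479 and 8892 FPKM in wild-type libraries, with a log2 difference of -0.18 (SE 0.307). mt-Co1, the catalytic subunit of cytochrome c oxidase, complex IV, had 8969, 7653, 8317, 10130.4 and 11491 FPKM in knockout libraries, against 18739.9, 7349.8, 8167, 8139.7 and 12583 FPKM in wild-type libraries. Its log2 difference was -0.16 (SE 0.272). In both genes wild-type 1 and wild-type 5 stood highest and wild-type 2 lowest, with all knockout libraries between them.

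The deposited levels of the other complex IV subunits were far lower and more uneven. Nuclear copies, described below, repeat nearly all of mt-Co2 and mt-Co3, so these levels are uncertain. mt-Co2 had 156, 116, 133, 505 and 238 FPKM in knockout libraries, against 1513, 77.7, 116, 173 and 241 FPKM in wild-type libraries. mt-Co3 had 79.7, 60.1, 45.1, 383 and 510.1 FPKM in knockout libraries, against 855, 54.6, 129, 60.5 and 199 FPKM in wild-type libraries. For both genes wild-type 1 stood highest and single knockout libraries above the rest, and the groups overlapped. The log2 differences were -0.20 (SE 0.694) for mt-Co2 and -0.15 (SE 0.843) for mt-Co3, and 0.49 and 0.48 without wild-type 1.

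The ATP synthase subunits share 43 bases. mt-Atp6 had 141, 82.8, 181, 209.9 and 136 FPKM in knockout libraries, against 959, 48.1, 60.6, 45.9 and 189.8 FPKM in wild-type libraries. mt-Atp8 had 7.09, 2.70, 5.89, 3.50 and 4.43 FPKM in knockout libraries, against 13.4, 2.50, 0.882, 3.96 and 3.32 FPKM in wild-type libraries, on 3 to 37 reads. Wild-type 1 was the highest for both and the groups overlapped. The log2 differences were 0.25 (SE 0.720) for mt-Atp6 and 0.26 (SE 0.435) for mt-Atp8. Without wild-type 1 they were 1.0 and 0.68, with unadjusted p of 0.0284 and 0.0412 in limma, and neither passed the adjusted threshold.

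A stretch of nuclear DNA repeats part of this genome, and it holds the low and uneven protein genes. On chromosome 1 of GRCm38, positions 24611535 to 24616197 on the minus strand hold 7 annotated pseudogenes in the order of the mitochondrial genes from mt-Co1 to mt-Nd4. Gm28661, Gm10925, Gm28437 and Gm10222 matched mt-Co2, mt-Atp6, mt-Co3 and mt-Nd4l over 99.0% to 99.9% of the gene with 100% identity. Gm28438 matched mt-Nd3 over 99.1% with 1 difference, and Gm29216 matched the last part of mt-Co1, 31.3% of the gene, also with 1 difference. Gm28439 matched the first 876 bases of mt-Nd4, 63.6% of the gene, with none. mt-Atp8, the lowest protein gene, lies in the repeated stretch without an annotated copy. The stretches around the 2 differences are shown because these are all the bases in the aligned parts that tell the copies apart, with the differing base in capitals and positions counted from 1 at the start of the mitochondrial gene. The first pair, T3C, is bases 1 to 23 of mt-Nd3 at MT:9459-9481 and chr1:24613097-24613119, and the second, A1066T, is bases 1063 to 1086 of mt-Co1 at MT:6390-6413 and chr1:24616165-24616188, the chromosome 1 bases read on the minus strand.
mt-Nd3: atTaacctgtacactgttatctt
Gm28438: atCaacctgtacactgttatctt
mt-Co1: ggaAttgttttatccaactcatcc
Gm29216: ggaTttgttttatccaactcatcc

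Windows of 100 bases were sought only in the transcripts of nuclear copies that matched a mitochondrial gene over at least 200 bases. Of all windows, 97.6% to 99.9% in mt-Co2, mt-Atp6, mt-Co3, mt-Nd3 and mt-Nd4l occur unchanged in such a transcript. In mt-Nd4 60.8% did and in mt-Co1 30.8%. In mt-Nd1, mt-Nd5, mt-Nd6 and mt-Cytb 0% did, and in mt-Nd2 3.19%. The first 5 genes had 18.2 to 1513 FPKM over the 10 libraries, and the ratio of the highest to the lowest library was 5.74 to 20.9 by gene. The last 5 had 1808 to 14000 FPKM, and that ratio was 2.97 to 3.52. mt-Atp8 had 0.882 to 13.4 FPKM, and its ratio was 15.2. It lies inside the stretch that chromosome 1 repeats but has no annotated copy of its own. Its 0% of shared windows therefore cannot place it in this division. How the authors' counter treated reads with several alignments is not stated, so the levels of the first 5 genes, and of mt-Co1 and mt-Nd4 in part, are uncertain. No window of 50 bases of mt-Th, mt-Ts2, mt-Tl2 or mt-Tg occurred in these transcripts. A tRNA is shorter than the 200 bases required of a match, so nuclear copies of the tRNAs alone were not sought. mt-Tg lies inside the stretch that chromosome 1 repeats, where no annotated transcript covers it. The run of mt-Th, mt-Ts2 and mt-Tl2 lies outside that stretch.

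The pseudogenes had reads of their own, and their division with the mitochondrial gene differed from library to library. Gm28437 took 41.5%, 51.7%, 89.2%, 20.9% and 31.2% of the reads on it and mt-Co3 in knockout libraries, against 17.4%, 49.1%, 37.1%, 54.0% and 56.6% in wild-type libraries. Gm28661 took 26.4%, 69.3%, 32.9%, 14.3% and 21.7% of the reads on it and mt-Co2 in knockout libraries, against 15.3%, 30.2%, 30.1%, 24.4% and 32.7% in wild-type libraries. The 95% Wilson intervals of these shares were at most 5.38 percentage points wide, and the groups overlapped. Knockout 3 stood alone for the first pair and knockout 2 for the second.

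Gm28438 took 2.49% to 17.4% of the reads on it and mt-Nd3 in knockout libraries and 9.90% to 28.2% in wild-type libraries. With the reads of each copy added to its gene, the log2 difference of mt-Nd3 was 1.42 with an unadjusted p of 0.0472, that of mt-Co2 was 0.01 and that of mt-Co3 was 0.18. Gm29216 and Gm28439 took 0.123% to 0.429% and 0.538% to 1.87% of the reads shared with mt-Co1 and mt-Nd4, over all libraries.

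**Figure D5:**
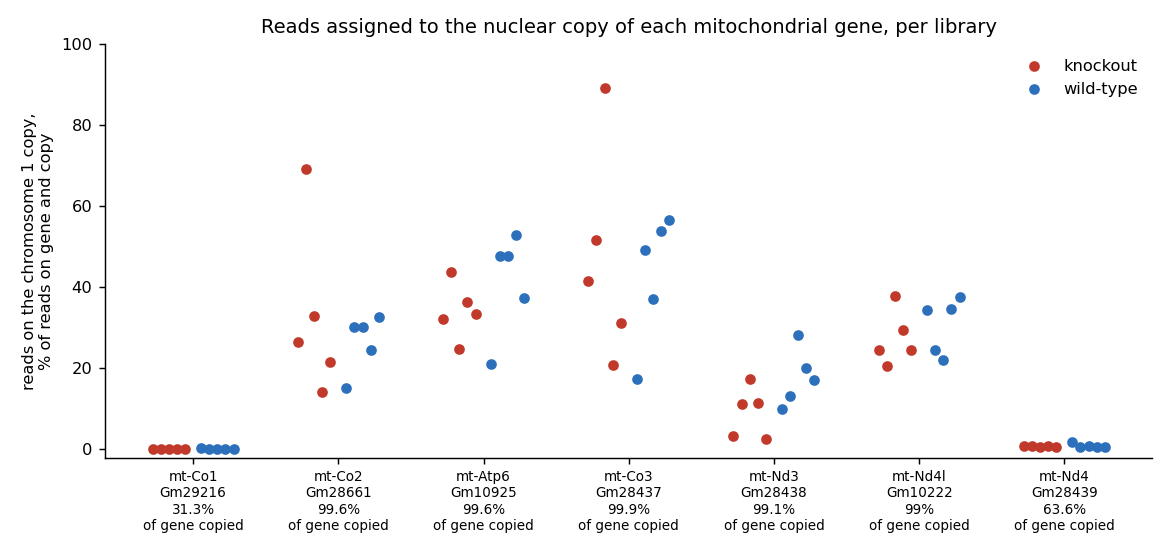
Reads on the chromosome 1 pseudogene as percent of the reads on it and its mitochondrial gene, 1 point per library, knockout left of wild-type, for 7 gene and pseudogene pairs, with the percent of the gene copied. The share is near 0 for mt-Co1 and mt-Nd4, and for mt-Co3 it ranges up to 89.2% in knockout 3.

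The nuclear genes that serve this genome showed small differences, and 0 of them passed the adjusted threshold. Of 75 nuclear respiratory chain subunits 62 were higher and 13 lower in knockout, with a median log2 difference of 0.10 (0.19 without wild-type 1), and 0 had an unadjusted p under 0.05. The smallest p among them were those of the complex I subunits Ndufv3, Ndufs7 and Ndufb8, with log2 differences of 0.25, 0.24 and 0.18. Of 78 mitochondrial ribosomal proteins 58 were higher and 20 lower, with a median of 0.07, and 3 had an unadjusted p under 0.05. Mrpl34 averaged 63.3 ± 8.71 FPKM in knockout and 50.1 ± 10.2 FPKM in wild-type libraries (SD, n = 5 each), a log2 difference of 0.34. Mrps34 differed by 0.33 and Mrps27 by -0.23. These counts describe the lists and carry no test of them. Of all genes tested 51.6% were higher, and 4.05% had an unadjusted p under 0.05 in limma.

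For the machinery of transcription and replication 9 genes were higher and 8 lower of 17, with a median of 0.00. In this list 2 had an unadjusted p under 0.05. Tk2, the mitochondrial thymidine kinase, averaged 8.04 ± 0.165 FPKM in knockout and 6.66 ± 0.797 FPKM in wild-type libraries (SD, n = 5 each). Its log2 difference was 0.25, with an unadjusted p of 0.0118 in limma. Polg2, the accessory subunit of the mitochondrial DNA polymerase, differed by 0.28 and the mitochondrial topoisomerase Top1mt by 0.19. For RNA processing and decay, which frees the tRNAs from the precursors and degrades RNA, 16 genes were higher and 12 lower of 28, with a median of 0.01. Here 0 had an unadjusted p under 0.05. Pnpt1, a mitochondrial exoribonuclease, averaged 8.20 ± 1.03 FPKM in knockout and 9.75 ± 1.16 FPKM in wild-type libraries (SD, n = 5 each), a log2 difference of -0.23 with an unadjusted p of 0.0511 in limma. The rRNA methyltransferases Mrm3 and Mrm1 differed by 0.21 and 0.19.

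Of 23 mitochondrial tRNA synthetases, which charge tRNAs with their amino acids, 14 were higher and 9 lower, with a median of 0.02. Among them 0 had an unadjusted p under 0.05. Aars2, Pars2 and Ears2, the alanine, proline and glutamate enzymes, differed by 0.15, 0.16 and -0.13. Of 13 regulators of mitochondrial number 7 were higher and 6 lower, with a median of 0.05, and 1 had an unadjusted p under 0.05. Pprc1, Ppara and Gabpa, with the smallest p of that list, differed by -0.31, -0.34 and -0.16. Without wild-type 1 the medians of these 6 nuclear lists were 0.06 to 0.19.

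Cell type markers differed in direction by list, with 0 calls. The 8 T and natural killer cell markers tested were all lower in knockout, with a median log2 difference of -0.49. Their summed level was 10.7 to 13.9 FPKM in knockout libraries, 9.69 FPKM in wild-type 1 and 20.8 to 35.1 FPKM in the other wild-type libraries. All 4 fat cell markers tested were higher in knockout, with a median of 0.53 and a summed level of 11.6 to 92.6 FPKM in knockout and 13.03 to 44.0 FPKM in wild-type libraries. All 10 fibroblast markers were higher, with a median of 0.16, but without wild-type 1 the median was 0.03 and 8 of 10 were higher. All 6 injured tubule markers were lower, with a median of -0.15, and without wild-type 1 the median was -0.27 and 5 of 6 were lower. Of 10 macrophage markers 7 were higher, with a median of 0.09, whereas without wild-type 1 the median was -0.11 and 1 of 10 was higher. The part of these lists in the mitochondrial values was not tested.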

How the data were processed

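Kidney RNA was sequenced in 10 libraries, 5 knockout and 5 wild-type, grouped by sample title. The aligner was HISAT2 2.0.5, per the submitters' processing notes. Not given in the sources used here are the genome build, the annotation and the counter. Its rules for strand, for multiply aligned reads and for reads that cover several genes are not given either. The authors deposited 1 value per gene and library, and the header names no unit. The values were taken as FPKM, because value times gene length came in whole steps of 1 read within 0.01 for 100% of values, which gave back the reads. The implied totals followed size factors, so libraries had been scaled to each other before the authors deposited the FPKM.

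Python 3.11.15, R 4.3.3 and limma 3.58.1 (variance trend, genotype as the only term, pseudocount 1, mean of at least 1 FPKM, Benjamini-Hochberg over 13435 genes, threshold 0.05) were used. The log2(FPKM + 1) scale understates changes of low genes. The fit was tested on simulated data. Nuclear copies were found with blastn 2.17.0 (identity of at least 90% over at least 200 bases) among GENCODE M21 transcripts. Alternatives were pseudocount 0.1, other scalings and filters, limma-voom on recovered reads with trimmed-mean scaling, a block for the replicate number, leaving out each library, and pseudogene reads added to their genes, which was chosen after seeing the data.

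Every mitochondrial gene was a member. Protein genes, rRNAs, tRNAs with at least 100 reads on average or among the 5 smallest p, and up to 3 genes with the smallest p per nuclear list were named with values. Other tRNAs are given by range. The members and lists were chosen with earlier results of these data known. Within groups all library pairs differed beyond counting noise, with a chi-square per gene of at least 11.6.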

Additional observations from a re-analysis of the deposited data

Results flagged for a closer look

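In 110 groups of 5 values, levels of the named mitochondrial genes and ratios between them, 11 groups held a value far from the other 4, where chance gives about 5.5, or 1 in 20. Many of the groups share genes and reads and are not independent, so these counts cannot show an excess over chance. The values are listed without explanation.

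Knockout 3 stood above the other knockout libraries in the tRNA run between mt-Nd4 and mt-Nd5. Per 1000 reads of mt-Nd4 and mt-Nd5 it had 0.496 reads of mt-Th, 0.693 of mt-Ts2 and 2.27 of mt-Tl2, where the other knockout libraries had 0.163 to 0.251, 0.223 to 0.301 and 0.495 to 0.925. Its summed reads on the 3 tRNAs were 404, against 139 to 214 in the other knockout libraries. In the same library the ratio of mt-Co1 to mt-Nd1 in FPKM was 1.59, below the 1.81 to 1.88 of the other 4. Without knockout 3 the log2 differences of mt-Tl2, mt-Ts2 and mt-Th were 1.33, 1.37 and 1.08.

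Wild-type 1 stood above the other wild-type libraries in 4 values. Its level of mt-Nd4l was 105 FPKM, against 33.7 to 46.2 FPKM. It had 24.9 reads of mt-Te per 1000 reads of mt-Nd6, against 16.3 to 17.9. Its ratios of mt-Co2 and mt-Co3 to mt-Co1 in FPKM were 0.0807 and 0.0457, against 0.0106 to 0.0212 and 0.00743 to 0.0158.

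Knockout 4 had a ratio of mt-Co2 to mt-Co1 of 0.0499, against 0.0152 to 0.0207 in the other knockout libraries. Knockout 5 had a ratio of mt-Rnr1 to mt-Nd1 of 0.0739, against 0.0429 to 0.0501.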

How the results depend on the processing

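With limma the number of genes called between genotypes was 0 under every alternative run, with 308 (without knockout 3) to 1245 (without knockout 4) genes at an unadjusted p under 0.05, and 1096 of 27780 with no filter. The median of the protein genes was -0.33 to 0.18 and the difference in mitochondrial share -1.12 to 0.11 percentage points with each library left out, positive in both only without wild-type 1. As shares of mitochondrial reads 6 log2 differences of the named genes turned positive, those of mt-Nd1 (0.13), mt-Co1 (0.0087), mt-Co3 (0.014), mt-Nd4l (0.065), mt-Nd6 (0.027) and mt-Te (0.023). With pseudogene reads added those of mt-Co2 (0.013) and mt-Co3 (0.18) did. Leaving out 1 library changed the sign of 14 of the named genes at least once. Their ranges were -0.20 to 0.19 for mt-Nd1, -0.36 to 0.089 for mt-Nd2, -0.091 to 0.38 for mt-Tc, -0.28 to 0.058 for mt-Co1, -0.58 to 0.49 for mt-Co2, -0.058 to 0.68 for mt-Atp8, -0.088 to 1.0 for mt-Atp6, -0.63 to 0.48 for mt-Co3, -0.28 to 0.21 for mt-Nd4l, -0.38 to 0.041 for mt-Nd4, -0.39 to 0.040 for mt-Nd5, -0.33 to 0.12 for mt-Nd6, -0.38 to 0.22 for mt-Te and -0.34 to 0.082 for mt-Cytb. The cause was not tested. Other named genes kept their sign under every alternative run. The stricter filter on reads gave no value for mt-Ta, mt-Tg, mt-Th, mt-Ts2 and mt-Atp8, which fall below it. With no filter the unadjusted p of mt-Nd3 was 0.0577. Deviations of same-numbered libraries correlated at 0.31, 0.11, -0.12, -0.34 and -0.04 for numbers 1 to 5, so the numbers were not taken to pair the samples. With the replicate number as a block 0 genes were called, 435 had an unadjusted p under 0.05, and mt-Tl2 and mt-Nd3 had unadjusted p of 0.00331 and 0.00111.

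Depth limits the tRNAs, many of which rest on fewer than 100 reads, and 6 of 22 could not be tested. The mRNA kit, the unstated counting of strand, of repeated sequence and of reads over several genes, and wild-type 1 bound what these values say of the genome as a whole.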
